A study of Mus musculus with 2 samples.

Results

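The cytosolic ribosomal protein genes are the genes for the proteins of the small and large subunits of the cytoplasmic ribosome. They were taken by name: every gene whose symbol is Rpl or Rps followed by a digit, and Rplp0, Rplp1, Rplp2 and Rpsa, without the Rps6k kinase genes and without symbols that hold -ps. This gave 86 of the 32285 genes counted, 34 named for the small subunit and 52 for the large subunit, on 19 chromosomes. Of these, 77 are usual subunits, and 9 are paralogs or other genes that the names also catch. The members were counted in hepatic CD45+ leukocytes, sorted live (7AAD-), from male C57Bl6/J mice whose marrow had been replaced after lethal irradiation. The Trem2-/- library pooled 4 recipients of marrow lacking Trem2, and the Trem2+/+ library pooled 4 recipients of littermate wild-type marrow. All recipients recovered for 6 weeks and then ate a methionine/choline-deficient diet for 4 weeks, which brings on steatohepatitis, so neither library shows a liver without disease. The deletion was carried by the transplanted marrow, and radioresistant host cells kept their own Trem2. With 1 library a group, no test of genotype could be made. The differences between cell types were read in both libraries, without a p-value, because cells of 1 library are not replicates.

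Ribosomal proteins assemble with ribosomal RNA in the nucleolus, and the finished subunits join on an mRNA in the cytoplasm to translate it. Their mRNAs are short, abundant in dividing or growth-ready cells, and begin with a run of pyrimidines, the TOP sequence, through which the mTOR pathway and the LARP1 protein set their translation and stability. In blood cells these mRNAs are known to be a large part of the RNA of resting lymphocytes and a small part of that of mature neutrophils, which have left the cell cycle.

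The 10x Chromium 5′ kit used here reads the 5′ end of each mRNA, which is the end that carries the TOP sequence. RefSeq promoter windows of GRCm38.p6 were at hand for 66 of the 86 members, and 32 of these 66 (48.5%) held a run of 8 or more C or T bases on the transcript strand within 30 bases of the annotated start, against 22.4% of 20267 genes. The windows below are shown for the members that the cell-type results turn on, from 30 bases before to 10 bases after the start, 5′ to 3′ on the strand of the gene, and capitals mark such a run. The first 3 lines are members with large differences between effector and naive T cells, the next 2 differed little there, the following 3 were lowest in neutrophils, and the last 3 are among those whose part of the ribosomal UMIs varied most between cell types.
Rps19 (chr7:24884562-24884601, plus strand): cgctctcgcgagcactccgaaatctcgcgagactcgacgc
Rpl35 (chr2:39005122-39005161, minus strand): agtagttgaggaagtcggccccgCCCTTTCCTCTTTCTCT
Rps28 (chr17:33824553-33824592, minus strand): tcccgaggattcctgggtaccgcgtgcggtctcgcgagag
Rpl27 (chr11:101442215-101442254, plus strand): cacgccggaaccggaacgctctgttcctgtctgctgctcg
Rpl13a (chr7:45128736-45128775, minus strand): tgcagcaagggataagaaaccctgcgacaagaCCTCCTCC
Rpl12 (chr2:32961682-32961721, plus strand): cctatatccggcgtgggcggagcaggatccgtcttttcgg
Rps18 (chr17:33955656-33955695, minus strand): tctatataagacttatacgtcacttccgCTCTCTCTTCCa
Rpl10a (chr17:28328441-28328480, plus strand): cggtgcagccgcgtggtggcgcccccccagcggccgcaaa
Rps9 (chr7:3704011-3704050, plus strand): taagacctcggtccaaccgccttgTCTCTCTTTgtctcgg
Rps27 (chr3:90213639-90213678, minus strand): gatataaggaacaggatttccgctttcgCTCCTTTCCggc
Rps27l (chr9:66946056-66946095, plus strand): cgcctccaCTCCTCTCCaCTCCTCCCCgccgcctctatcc
As printed, windows with and without a run stood in the first 3 of these sets and all 3 windows of the last set held a run. A run further than 10 bases after the start was counted above but does not show here. Both runs of Rps27l lie before the annotated start, so from that start they would not be transcribed. An annotated start need not be the start used in these cells. Among members tested, the median log2 ratio of effector over naive T cells was -0.68 for the 31 with a run and -0.66 for the 31 without, and that of neutrophils over T cells was -2.71 with a run and -2.74 without. Of other letters searched over the whole windows on either strand, CGGAAG was in 66.7% of the members' windows and in 20.1% of all genes' windows, ATGGCG in 28.8% against 10.5%, and TATAAA in 9.09% against 13.1%.

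The libraries held 6362 barcodes and 25288032 unique molecular identifiers (UMIs, each standing for 1 captured molecule) in the Trem2-/- library, and 7012 barcodes and 27238586 UMIs in the Trem2+/+ library. After filtering, 5974 and 6596 cells stayed, with medians of 2931.5 and 2492 UMIs. Trem2 itself gave 154 UMIs (6.19 counts per 1e6 UMIs, CPM) in the Trem2-/- library and 5478 UMIs (204 CPM) in the Trem2+/+ library, and the position of the deletion relative to the 5′ reads was not given in the sources used here. Ptprc, the gene of CD45, had 739 and 652 CPM. Both libraries share 56 cell barcodes. Clusters were named from marker genes and are called "-like" for that reason; despite the CD45 sort, 969 and 672 kept cells were endothelial-like. The doublet caller marked 0.0629% and 0.0285% of barcodes, under the 0.5% that would show a working caller; only these 4 and 2 barcodes were removed as doublets.

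Across all kept cells, the members took 18.7% of UMIs in the Trem2-/- library and 18.7% in the Trem2+/+ library. The share depended on the cell type. It was highest in naive T-like cells, at 37.9% in the Trem2-/- library and 40.1% in the Trem2+/+ library (95% exact binomial intervals 37.8% to 38.0% and 40.0% to 40.2%, which, like all intervals here, cover counting error only), and lowest among named classes in neutrophil-like cells, at 4.04% and 4.80%. B-like cells followed the naive T cells, with 25.5% and 27.4%. NK or ILC1-like cells had 22.1% and 24.0%, and type 1 dendritic (cDC1-like) cells 23.9% and 24.4%. The other myeloid classes were lower. Type 2 dendritic (cDC2-like) cells had 21.6% and 21.8%, Ly6C-high monocyte-like cells 16.8% and 17.3%, and macrophage-like cells 14.8% and 14.7%. Endothelial-like cells had 13.1% and 14.3% and Kupffer-like cells 11.6% and 13.7%. T-like cells with fewer than 1000 UMIs, 329 in the Trem2-/- library and 188 in the Trem2+/+ library, had low median shares of 2.52% and 2.91%, with mitochondrial medians of 5.26% and 5.56%. B-like cells under 1000 UMIs had a median share of 2.95% and a mitochondrial median of 5.77% in the Trem2-/- library, against 16.8% and 3.61% in the Trem2+/+ library.

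**Figure D1:**
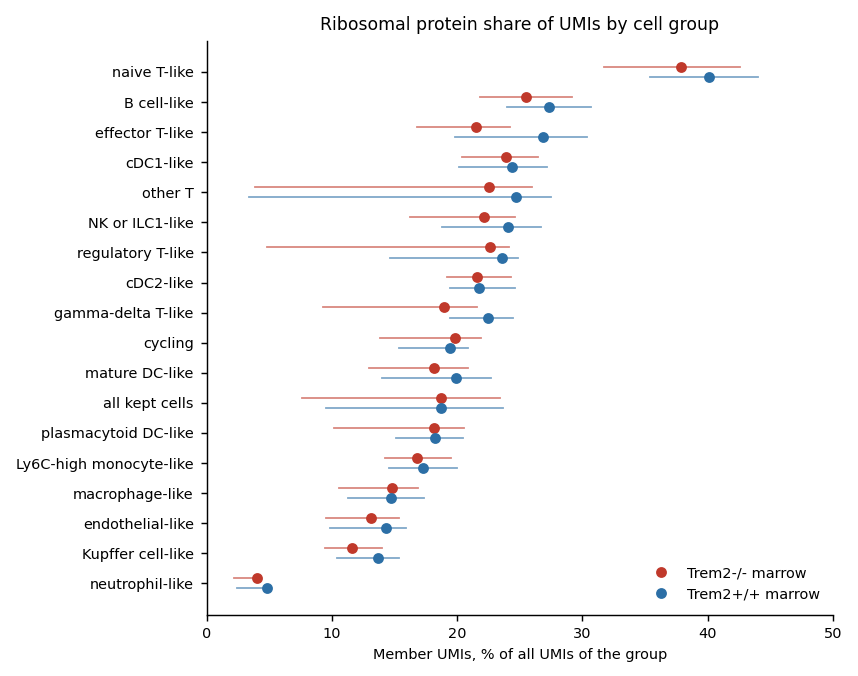
Share of UMIs from the 86 ribosomal protein genes, in percent, in each group of cells and each library; points are the pooled shares and lines span the quartiles over cells. Naive T-like cells lie highest (37.9% and 40.1%) and neutrophil-like cells lowest among named classes (4.04% and 4.80%).

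Effector T-like cells carried less ribosomal protein mRNA than naive T-like cells in both libraries. In the Trem2-/- library the members took 21.5% of UMIs in 346 effector cells and 37.9% in 235 naive cells, a log2 ratio of -0.81 (95% interval -0.82 to -0.81). In the Trem2+/+ library they took 26.8% in 225 effector cells and 40.1% in 283 naive cells, a log2 ratio of -0.58 (-0.59 to -0.57). The effector cells carried the effector markers at 52676 and 42401 CPM summed, against 2949 and 3556 CPM in naive cells, and the naive markers at 129 and 130 CPM, against 3685 and 3115 CPM. Ccl5, a chemokine of effector T cells, alone made 36021 and 30346 CPM in effector cells. Macrophage markers also moved with the groups, at 946 and 379 CPM in effector cells against 159 and 165 CPM in naive cells, and their part in the result was not tested.

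The effector class was made of 4 clusters of T-like cells that the libraries filled unequally. The largest cluster held 109 cells of the Trem2-/- library and 148 of the Trem2+/+ library, with member shares of 23.3% and 29.5%. The next held 96 and 48 cells, with 19.1% and 20.4%. A further cluster held 87 and 27 cells, with 23.0% and 21.3%, and the last held 54 and 2 cells, with 20.9% and 16.7%. All of these lay below both naive clusters, which had 36.8% and 39.3% in the first and 39.0% and 40.8% in the second. With only the largest effector cluster, an alternative chosen after seeing the data, the log2 ratios were -0.70 and -0.44. A cluster outside the class, with 164 and 21 cells, also led in effector markers. It stayed unnamed because its top genes were of another class, and its member shares were 21.9% and 22.9%.

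A gene was tested where it averaged at least 20 CPM, and called where it differed by at least 1.5-fold in the same direction in both libraries. Of 82 members tested between effector and naive T-like cells, 35 were called lower and 0 higher, where 5.66% of the 5075 genes tested were lower and 17.0% higher. The members' median log2 ratio over both libraries was -0.68, and that of all genes was 0.23. Of the 82, 78 were below 0 in both libraries. By library, 64 members passed 1.5-fold in the Trem2-/- library and 35 in the Trem2+/+ library. The shares of all genes above are for calls made in both libraries, so they are no background for these counts by library. The small-subunit genes had 17 lower of 33 and a median of -0.75, and the large-subunit genes 18 of 49 and a median of -0.65. The members not tested were Rpl10l, Rpl39l, Rpl3l and Rps19bp1.

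Among the small-subunit genes, Rps20, a protein of the head of the subunit, had 3299 CPM in effector cells and 8597 CPM in naive cells of the Trem2-/- library, and 4556 and 9313 CPM in the Trem2+/+ library. Its log2 ratios of -1.38 (-1.44 to -1.32) and -1.03 (-1.09 to -0.97) were among the largest falls. Rps19, which is mutated in human Diamond-Blackfan anaemia, had 2075 CPM in effector and 5516 CPM in naive cells of the Trem2-/- library, and 3142 and 6261 CPM in the Trem2+/+ library, with log2 ratios of -1.41 and -0.99. Both genes fell by more than the members together. Rps28 had 3048 against 6853 CPM and 3244 against 5835 CPM (log2 -1.17 and -0.85). Rps4x, an X-linked subunit, followed with log2 ratios of -0.98 and -0.79. Rps27a, which is made as a fusion to ubiquitin, was called lower as well, at -0.90 and -0.69. Rpsa, also known as the laminin receptor precursor, stood at -0.86 and -0.68. Rps6, the substrate of the S6 kinases, missed the threshold in the Trem2+/+ library, with -0.95 and -0.57. Rps15a was closer to level, with -0.43 and -0.26. The RNA of Rps19bp1, a nucleolar partner of Rps19, was too low to test.

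Among the large-subunit genes, Rpl35 had 1583 CPM in effector and 3770 CPM in naive cells of the Trem2-/- library, and 2113 and 3917 CPM in the Trem2+/+ library, with log2 ratios of -1.25 and -0.89. Rpl36a followed at -1.20 and -0.93, and Rpl8, near the catalytic centre, at -1.05 and -0.95. The 3 proteins of the stalk, which recruits translation factors, were all lower: Rplp0 had log2 ratios of -1.13 and -0.81, Rplp1 of -1.02 and -0.89, and Rplp2 of -0.77 and -0.63. Rpl10, an X-linked subunit that completes the large subunit late in its maturation, had -0.79 and -0.58, Rpl3 -0.80 and -0.50, Rpl7 -0.67 and -0.56, and Rpl39, of the exit tunnel, -0.80 and -0.54. None of the last 4 passed the threshold in the Trem2+/+ library. At the upper end, Rpl37 had -0.53 and -0.21. A further set differed by less. Rpl27 had 2577 CPM in effector and 2773 CPM in naive cells of the Trem2-/- library, and 3263 and 3147 CPM in the Trem2+/+ library (log2 -0.11 and 0.05). Rpl13a, known outside the ribosome for silencing of interferon-induced mRNAs, had 3571 against 4070 CPM and 4491 against 4578 CPM (log2 -0.19 and -0.03). For these the CPM level differed little although the ribosomal total was lower, so their part of the ribosomal UMIs was larger in effector cells.

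Paralogs were read beside their partners. Rpl36al, an intronless copy of Rpl36a, had 716 CPM in effector and 819 CPM in naive cells of the Trem2-/- library, and 915 and 890 CPM in the Trem2+/+ library (log2 -0.19 and 0.04), while Rpl36a fell. It made 36.9% and 36.9% of the UMIs of that pair in effector cells and 22.5% and 23.0% in naive cells. Rpl22l1 had log2 ratios of -0.45 and -0.16, against -0.63 and -0.35 for Rpl22, which is needed for alpha-beta T cell development in mice. Rps27l, a p53-responsive copy of Rps27, had 70.8 against 49.1 CPM and 82.2 against 70.9 CPM, with log2 ratios of 0.53 (-0.03 to 1.10) and 0.21 (-0.31 to 0.73), the 1 member above 0 in both libraries. The intervals of both ratios include 0. Rps27 itself stood at -0.68 and -0.58. Reads can be shared between near-identical copies, so Rps27rt, a near copy of Rps27, is uncertain (log2 -0.32 and -0.49).

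**Figure D2:**
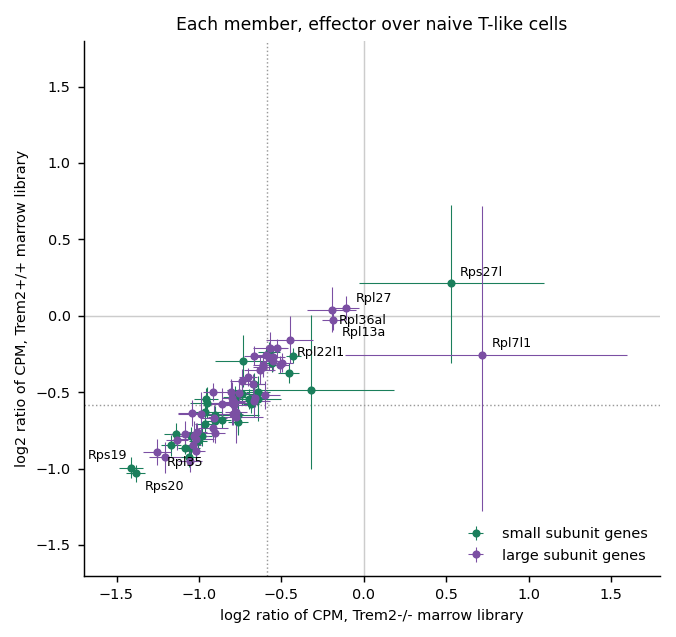
Log2 ratio of effector over naive T-like cells for each tested ribosomal protein gene, Trem2-/- library on the horizontal axis and Trem2+/+ library on the vertical axis, coloured by subunit, with 95% intervals of counting error as bars and dotted lines at 1.5-fold lower. Most genes lie below 0 in both libraries, Rps20 and Rps19 among the lowest, and Rpl27 and Rps27l near or above 0.

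Neutrophil-like cells carried far less. The members took 4.04% of UMIs in 542 neutrophil-like cells and 24.8% in 1712 T-like cells of the Trem2-/- library, a log2 ratio of -2.62. In the Trem2+/+ library they took 4.80% in 723 neutrophil-like cells and 29.9% in 1053 T-like cells, a log2 ratio of -2.64. Against naive T-like cells only, the ratios were -3.23 and -3.06. S100a8 and S100a9, abundant cytosolic proteins of neutrophils, had 42031 and 53043 CPM in neutrophils of the Trem2-/- library, and 37991 and 46883 CPM in neutrophils of the Trem2+/+ library. The T cell gene Cd3e had 50.3 and 41.2 CPM in neutrophil-like cells against 1301 and 978 CPM in T-like cells.

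Most of the T cell marker signal in neutrophil-like cells, 223 and 149 CPM of 10 markers summed, lay in 1 small cluster. It held 12 cells of the Trem2-/- library and 13 of the Trem2+/+ library, gave a member share of 16.8% and 24.5%, and had 3571 and 2465 CPM of 10 T cell markers summed, against 47.7 and 57.4 CPM in the other neutrophil clusters. The T cell genes of this cluster were found after its values were seen. Without it the share was 3.37% and 4.03%, and the log2 ratios over T-like cells were -2.88 and -2.89. Without the 5% of barcodes with the highest doublet scores they were -3.07 and -3.04.

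Between neutrophil-like and T-like cells, 81 of 82 members tested were called lower and 0 higher, where 48.4% of 4944 genes were lower and 21.3% higher. The median log2 ratio of the members was -2.68 and that of all genes was -0.69. Rpl7l1, named for its likeness to Rpl7, was the member not called, with -1.06 and -0.13.

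The falls were not even across members. Rpl12, at the base of the stalk, had 123 CPM in neutrophil-like and 1964 CPM in T-like cells of the Trem2-/- library, and 188 and 2451 CPM in the Trem2+/+ library, with log2 ratios of -4.00 (-4.24 to -3.77) and -3.71 (-3.89 to -3.53). Rps18 had 104 against 1513 CPM and 162 against 1953 CPM (log2 -3.87 and -3.59). Rpl10a, of the stalk beside the exit site, had -3.83 and -3.49, and Rpsa -3.68 and -3.46. Rps15a had -3.59 and -3.61, and Rpl3, which lines the catalytic centre, -3.58 and -3.70. These 6 were the lowest of the well-counted members. Without the small cluster, Rpl12 was at -4.74 and -4.38, Rps18 at -4.41 and -4.35, and Rpl10a at -4.54 and -4.08.

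Rps9, an early-binding protein of the small subunit, had the ratio nearest to 0 among members with at least 100 CPM and 100 UMIs. It had 1990 CPM in neutrophil-like and 3267 CPM in T-like cells of the Trem2-/- library, and 2098 and 4011 CPM in the Trem2+/+ library. Its log2 ratios were -0.71 (-0.78 to -0.65) and -0.93 (-0.99 to -0.88), and -0.76 and -0.97 without the small cluster. Rps27 had 1494 against 5051 CPM and 1568 against 5525 CPM (log2 -1.76 and -1.82). Rps25, which many viral internal ribosome entry sites need, had -1.50 and -1.48, and Rpl37 -1.62 and -1.56. Rps27a had -1.78 and -1.89, and Rpl41, among the shortest proteins known, -1.93 and -1.92. The stalk genes Rplp0, Rplp1 and Rplp2 lay between, Rplp0 at -3.17 and -3.20, Rplp1 at -2.91 and -3.08, and Rplp2 at -2.60 and -2.78. Rps6 had -2.70 and -2.85, Rps19 -3.29 and -3.20, Rps4x -3.36 and -3.43, and Rpl10 -2.07 and -2.03. Rpl3l, known as the copy of Rpl3 in heart and skeletal muscle, had 48 UMIs in the whole Trem2-/- library and 34 in the Trem2+/+ library. In neutrophil-like cells without the small cluster it had 20.8 and 15.3 CPM, while T-like cells held no UMI of it. Rpl3l was too low to be tested in this comparison. Rpl39l, known from the testis, had 4 and 5 UMIs in the whole libraries, and Rpl10l, also of the testis, had 0 in both, where a count of 0 allows up to 3 UMIs.

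**Figure D3:**
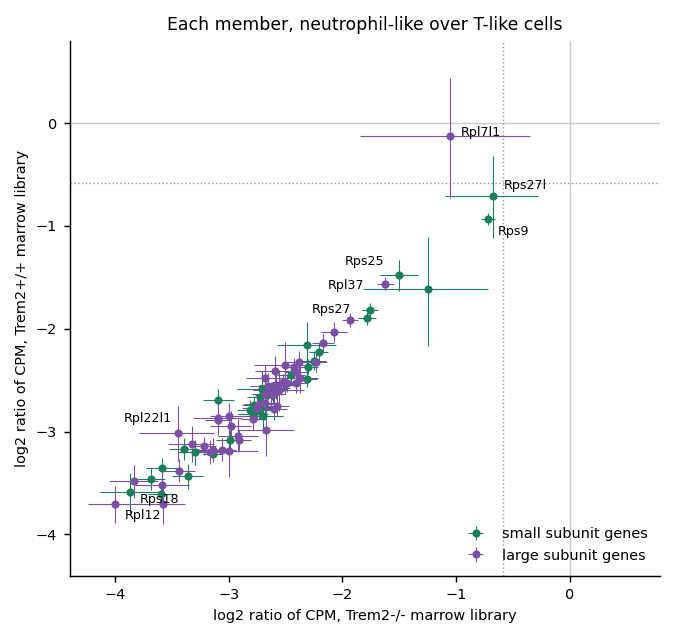
Log2 ratio of neutrophil-like over T-like cells for each tested ribosomal protein gene, Trem2-/- library on the horizontal axis and Trem2+/+ library on the vertical axis, coloured by subunit, with 95% intervals of counting error as bars and dotted lines at 1.5-fold lower. Rps9 lies closest to 0 among well-counted members (-0.71 and -0.93) and Rpl12 is lowest (-4.00 and -3.71).

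Other genes of translation and ribosome assembly were counted from lists. Rack1, a scaffold on the small subunit, was called lower between effector and naive T-like cells (log2 -0.82 and -0.60), while Fau, made as a fusion to a ubiquitin-like protein, had -0.23 and -0.04. Of 24 translation factors, 2 were lower and 0 higher, near the 5.66% lower among all genes (17.0% were higher), with a median of -0.15: the elongation factor gene Eef1b2 (-1.10 and -0.74) and Tpt1 (-0.62 and -0.68). Of 25 ribosome assembly genes tested, 6 were lower and 0 higher, beside the same 5.66% and 17.0%, with a median of -0.54, among them Fbl, the rRNA methylase fibrillarin (-1.36 and -0.67), Npm1, the nucleolar nucleophosmin (-1.18 and -0.64), and Wdr12 (-2.04 and -0.75). In neutrophil-like against T-like cells, 18 of 18 assembly genes were lower (median -2.72), and 21 of 24 translation factors were lower and 1, Eif1, higher (1.09 and 1.22; median -1.84), where 48.4% of all genes were lower and 21.3% higher. Fau and Rack1 were also lower there, Fau with log2 ratios of -0.63 and -0.64 and Rack1 with -3.14 and -3.15. Assembly genes low in both groups of cells were not tested, so the count of these genes depends on the CPM threshold. In the Trem2-/- library, most of the assembly genes tested there lay under that threshold in neutrophil-like cells. They passed through their T-like level, so they could be called lower but not higher. Dkc1 was among them, with 2.47 CPM in neutrophil-like and 37.5 CPM in T-like cells. Others, such as Ncl with 155 against 507 CPM, were well counted in both.

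Among 12 tested regulators of ribosome production and growth, 2 were higher in effector than in naive T-like cells and 0 lower, a share near the 17.0% higher among all genes: Cdkn1a, a p53-driven cell-cycle inhibitor (log2 3.74 and 2.08), and Mxd4, which competes with Myc for Max (2.04 and 1.43). Myc, which drives ribosomal gene transcription, had -1.26 and -0.55, short of the threshold in the Trem2+/+ library. In neutrophil-like against T-like cells 3 of 12 were higher, led by Eif4ebp1, a brake on cap-dependent translation (3.74 and 3.52), and 5 lower, led by Myc (-3.61 and -3.65), near the 21.3% higher and 48.4% lower among all genes. In the Trem2-/- library Eif4ebp1 had 155 against 11.6 CPM and Myc 7.42 against 90.5 CPM, so each passed through its higher group alone.

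The make-up of the ribosomal UMIs was then followed over 11 groups of cells with at least 100 cells in each library. The small-subunit genes made 47.0% and 46.7% of member UMIs in naive T-like cells, 44.7% and 44.2% in effector T-like cells and 46.6% and 46.1% in neutrophil-like cells. Of 83 members with at least 500 UMIs, 24 varied at least 2-fold between the highest and lowest group, with a median of 1.7-fold. The same count was not made over all genes, so whether 24 is many was not tested. The neutrophil-like cells here include the small cluster with T cell genes. Rps9 made 4.93% and 4.37% of member UMIs in neutrophil-like cells and 1.20% and 1.22% in naive T-like cells. Rps27 made 3.70% and 3.26% in neutrophil-like cells and 1.16% and 0.971% in macrophage-like cells. Rplp0 made 1.91% and 1.87% in Ly6C-high monocyte-like cells and 0.657% and 0.708% in endothelial-like cells.

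Rps27l varied most, 28.8-fold. Of the UMIs of Rps27l and Rps27 together, Rps27l made 19.6% and 21.1% in endothelial-like cells, 14.8% and 17.7% in Kupffer-like cells and 13.5% and 16.3% in macrophage-like cells. Monocyte-like cells stood between, with 7.98% and 8.42%. In B-like cells it made 0.679% and 0.790% and in naive T-like cells 0.613% and 0.920%. Lymphoid and myeloid groups did not overlap in this ratio, except that neutrophil-like cells (3.10% and 3.09%) sat beside NK or ILC1-like cells (3.33% and 3.13%). The order was another for Rpl36al, which made 53.2% and 52.0% of its pair in monocyte-like cells but 28.1% and 28.2% in endothelial-like cells. Rpl22l1 differed again, since its part of the pair with Rpl22 was 31.9% and 28.1% in effector T-like cells and 18.6% and 15.8% in cDC1-like cells.

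**Figure D4:**
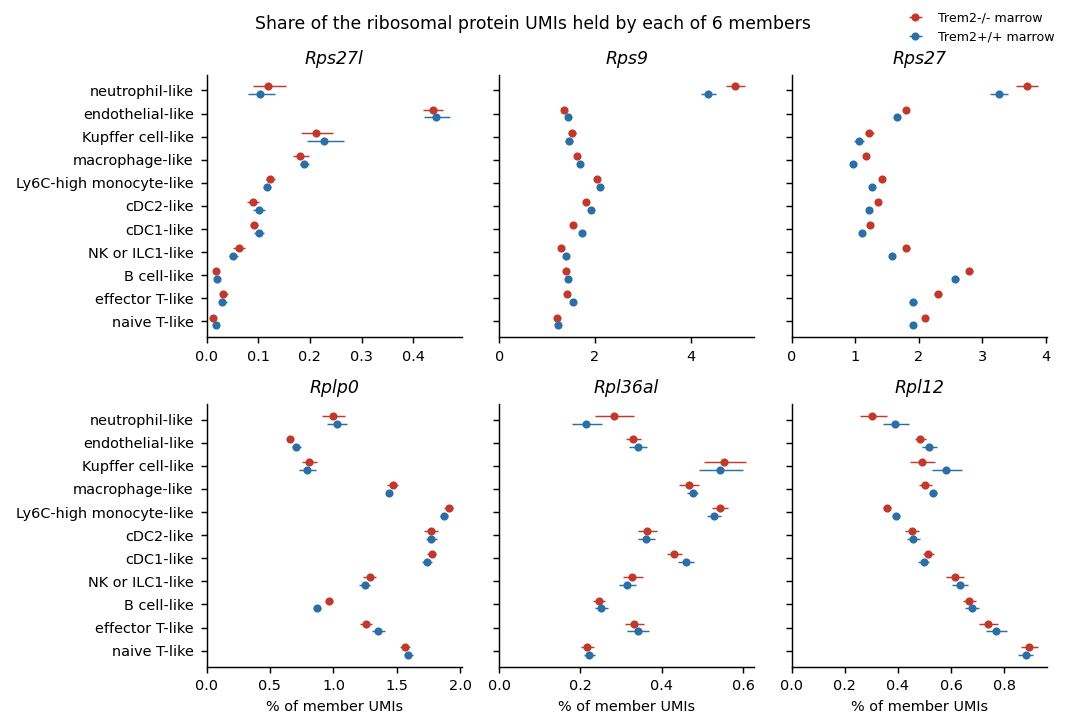
Percent of ribosomal protein UMIs given by Rps27l, Rps9, Rps27, Rplp0, Rpl36al and Rpl12 in 11 groups of cells and both libraries, with 95% Poisson intervals of counting error. Rps9 and Rps27 are highest in neutrophil-like cells and Rps27l in endothelial-like cells.

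Between the genotypes, the pooled share was level across all cells but lower in the Trem2-/- library in most cell types. T-like cells had 24.8% in the Trem2-/- library and 29.9% in the Trem2+/+ library (log2 -0.27), and neutrophil-like cells 4.04% and 4.80% (log2 -0.25, and -0.26 without the small cluster that held T cell genes). Effector T-like cells differed most among groups of at least 100 cells (log2 -0.32) and naive T-like cells less (log2 -0.08). B-like cells stood at -0.10, NK or ILC1-like cells at -0.12, endothelial-like cells at -0.13 and Kupffer-like cells at -0.23. Macrophage-like cells were at 0.0037 (-0.0023 to 0.0096) together, but their clusters differed in direction and the libraries filled them unequally. A cluster of 162 and 513 cells had 14.7% and 15.3% (log2 -0.05), a cluster of 45 and 249 cells 14.3% and 13.5% (0.08), and a cluster of 113 and 444 cells 17.0% and 15.6% (0.12). Of 11 groups, 10 were lower in the Trem2-/- library, with a median log2 of -0.10. With 1 pooled library a group, genotype and library cannot be told apart.

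The make-up of the T-like cells differed between libraries, and its part in the pooled T-like difference was not tested. Naive cells were 13.7% of T-like cells in the Trem2-/- library and 26.9% in the Trem2+/+ library. T-like cells in no named subset were 58.6% and 44.9%. Depth and mitochondrial share also moved with it. T-like cells of 1000 to 2000 UMIs had a median share of 6.98% and a mitochondrial median of 3.13% in the Trem2-/- library, against 21.6% and 2.15% in the Trem2+/+ library. All kept cells under 1000 UMIs had median shares of 3.45% in the Trem2-/- library and 9.56% in the Trem2+/+ library. Among T-like cells of 1500 to 4000 UMIs the log2 difference was -0.23, and with at least 1000 UMIs it was -0.26. With the T subsets weighted equally, an alternative chosen after seeing the data, the log2 difference was -0.16 in place of -0.27. This gave small subsets, such as gamma-delta T-like cells with 24 and 39 cells, the same weight as large ones. With 10 classes weighted equally, all cells came to 17.8% and 19.2% (log2 -0.11) in place of level shares. Within clusters of effector T-like cells the direction varied: the largest had 23.3% and 29.5%, and another 23.0% and 21.3%.

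No member reached 1.5-fold between the libraries over all kept cells: 0 of 83 members tested were higher or lower, where 4.62% of 6230 genes were higher and 1.86% lower. In T-like cells 0 of 83 were called, against 3.60% higher and 0.450% lower among all genes, although 79 of the 83 were below 0 (median log2 -0.28, against 0.10 for all genes). In neutrophil-like cells 6 of 82 were lower, a share near the 5.0% lower among all genes (3.61% were higher). They were Rps20 with 367 CPM in the Trem2-/- library and 592 CPM in the Trem2+/+ library, Rpl10a with 144 and 241 CPM, Rps18 with 104 and 162 CPM, Rpl12 with 123 and 188 CPM, Rps2 with 373 and 578 CPM, and Rpl7l1 with few UMIs and an interval that includes 0. These 6 and the genes named below were picked after their values were seen. Without the small cluster that held T cell genes, Rps18 had 71.1 and 95.6 CPM, under 1.5-fold. Rps20 then had 253 and 383 CPM, just past it. In naive T-like cells 0 of 82 were called, against 7.13% higher and 3.68% lower. In effector T-like cells Rps19 was lower, with 2075 and 3142 CPM (log2 -0.60), where 4.45% of genes were lower. Rps19bp1 and Rpl7l1 were counted higher there on few UMIs, with intervals that include 0, where 11.9% of genes were higher.

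A small set of members ran higher in the Trem2-/- library. With all kept cells summed, Rps29 had 4444 CPM in the Trem2-/- library and 3601 CPM in the Trem2+/+ library (log2 0.30), Rpl38 had 2928 and 2463 CPM (0.25), Rps27 had 3225 and 2714 CPM (0.25), Rps21 had 2911 and 2486 CPM (0.23) and Rps28 had 3255 and 2785 CPM (0.22). These 5, with Rpl39, Rpl37 and Rpl6, were the 8 of 86 members that lay above the ratio of all members in 11 of 11 groups, which is a description, since the groups are parts of the same cells and libraries. Members too low to test in a group could not reach 11 of 11, and the same count was not made over all genes. Rps28, Rpl37 and Rpl6 were picked after their values were seen. At the other end Rps25 had 764 and 836 CPM (-0.13), with Rps9 and Rpl10a at -0.12 and Rps19 at -0.11. The first 5 are among the 7 members whose main transcript is under 400 bases, of which 6 were above 0 with a median of 0.23. Other genes under 400 bases, 13 of them, had a median of 0.24, with 10 above 0. Within cell types the values differed. In naive T-like cells the members under 400 bases had a median of 0.07 and the other genes -0.07 (10 of 22 above 0). In effector T-like cells it was -0.09 for the members, 1 of 7 above 0, and 0.19 for the other genes. In neutrophil-like cells it was -0.03 for the members and -0.31 for the other genes (1 of 9 above 0). All members together were at -0.08 in naive T-like, -0.32 in effector T-like and -0.25 in neutrophil-like cells. In the remaining groups both medians of genes under 400 bases were above 0. They were 0.23 for the members and 0.26 for the other genes in cDC2-like cells, and 0.0060 and 0.30 in Kupffer-like cells. Over all kept cells, the 19 members of 400 to 600 bases had a median of -0.04, with 4 above 0. The part of transcript length in these differences was not tested.

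**Figure D5:**
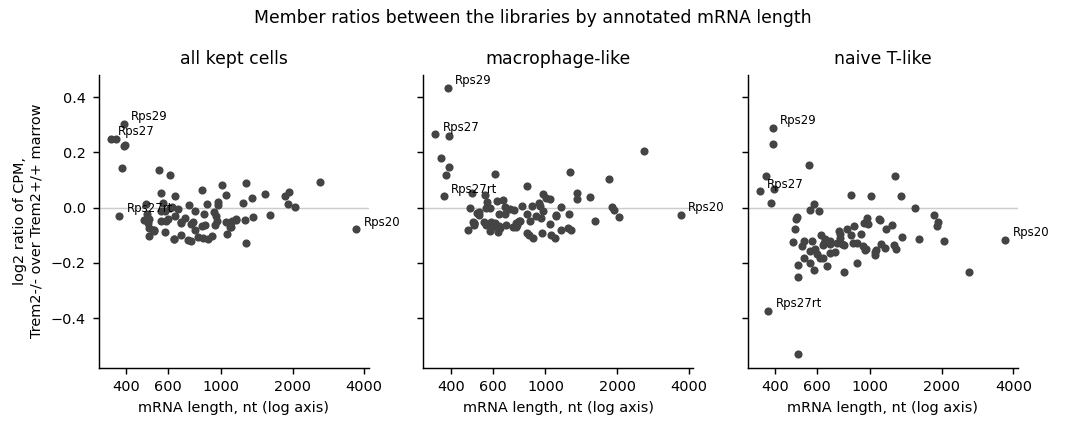
Log2 ratio of the Trem2-/- over the Trem2+/+ library for each ribosomal protein gene against the length of its main transcript in bases (log axis), in all kept cells, macrophage-like cells and naive T-like cells. Over all kept cells, 6 of the 7 members under 400 bases lie above 0.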

How the data were processed

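Hepatic CD45+ cells were profiled with 10x Chromium 5′ libraries, 1 library of 4 pooled mice a group. The authors deposited filtered matrices of UMI counts per gene and cell. Cell Ranger and mm10 are named, per the submitters' processing notes; the annotation release was not given in the sources used here. Members and gene lists were chosen with earlier results of these data known. Kept cells had 200 or more genes and no more than 10% mitochondrial UMIs. Clustering used scanpy 1.11.5 and leidenalg 0.10.2 (2000 variable genes without members and Trem genes, 30 components, resolution 1); clusters were named from markers, with limits set after clusters were seen. Shares are summed UMIs with exact binomial intervals, and log2 ratios are of CPM with exact conditional intervals (scipy 1.17.1). A group at 0 was set to 3 counts. The text names, among members with at least 100 CPM and 100 UMIs, the 6 highest and 6 lowest ratios in each cell-type comparison and the 4 highest and 4 lowest between genotypes, plus set paralogs, stalk genes and subunits with known roles. On simulated counts of effector and naive cells, 4605 genes were tested and 200 of them had been changed 2-fold. Of these 200, 196 (98.0%) were recovered, which is not a rate for all genes tested. The 200 were drawn from genes of at least 100 CPM. Only counting error was simulated, without differences between cells or libraries. Of the unchanged genes, 27 (0.613%) were called. Transcript lengths are of GENCODE M21 and promoter windows of RefSeq GRCm38.p6. Alternatives changed the cell filter, depth, doublet scores, clustering, denominator, summary and members. A gene of the further ribosome list is not reported here.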

Additional observations from a re-analysis of the deposited data

Results flagged for a closer look

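Pseudogene-named rows outside the members held UMIs. Rpl9-ps6 had 456 UMIs in the Trem2-/- library and 529 in the Trem2+/+ library, Rpl10-ps3 had 272 and 336, and Rpl36a-ps1 had 38 and 46, all above the 3 UMIs that a count of 0 allows. These were 0.763% and 0.827%, 0.443% and 0.471%, and 0.136% and 0.154% of the UMIs of Rpl9, Rpl10 and Rpl36a. How reads were divided between such rows and their near-identical parents was not tested.

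The genotype difference in the member share ran opposite ways in some groups. Cycling cells were at a log2 of 0.030 and macrophage-like cells at 0.0037 (the interval of which includes 0), while T-like, B-like and NK or ILC1-like cells were below 0. The difference between these groups was not tested.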

How the results depend on the processing

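Of 72 recomputed share ratios, 70 kept their direction; 20 stayed within the 95% interval of the reported value and 50 moved outside it. Of 11 recomputed counts of members, 8 stayed within 1.5 times. Values are given for the Trem2-/- library, then the Trem2+/+ library, and the causes were not tested. For effector over naive T-like cells (-0.81 and -0.58), the log2 ratio was -0.82 and -0.59 without mitochondrial UMIs and Malat1, -0.77 and -0.57 without the 5% highest doublet scores, -0.78 and -0.57 at Leiden resolution 2, -0.76 and -0.55 with members among the variable genes, -0.86 and -0.63 as a median over cells, -0.61 and -0.40 with cells split by summed markers, and -0.70 and -0.44 with the largest effector cluster only. In the Trem2+/+ library it was -0.51 under a stricter filter (500 genes or more, no more than 5% mitochondrial UMIs) and -0.62 for cells of 1500 to 4000 UMIs.

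For neutrophil-like over T-like cells (-2.62 and -2.64), it was -2.99 and -3.02 with the stricter cell filter, -2.95 and -2.98 for 1500 to 4000 UMIs, -3.07 and -3.04 without the highest doublet scores, -2.64 and -2.66 at resolution 2, -2.99 and -3.06 with members among the variable genes, -2.90 and -3.01 as a median, -2.67 and -2.69 with at least 1000 UMIs and -2.88 and -2.89 without the smallest neutrophil cluster. In the Trem2-/- library it was -2.63 without mitochondrial UMIs and Malat1.

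Between genotypes, T-like cells (-0.27) were at -0.27 with the stricter filter, -0.23 for 1500 to 4000 UMIs, -0.26 without the highest doublet scores, -0.26 at resolution 2, -0.25 with members among the variable genes, -0.26 with at least 1000 UMIs and -0.16 with T subsets weighted equally. Neutrophil-like cells (-0.25) were at -0.23, -0.20, -0.30, -0.18 with members among the variable genes and -0.16 as a median, the first 3 for the stricter filter, the depth range and the doublet scores. All kept cells (-0.0046) were at -0.00030 without mitochondrial UMIs and Malat1, -0.070 for 1500 to 4000 UMIs, -0.020 as a median, -0.0011 with at least 1000 UMIs and -0.11 with classes weighted equally, and turned to 0.0028 with the stricter filter and 0.0060 without the highest doublet scores.

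Counted as shares of ribosomal UMIs, 3 members passed between effector and naive T-like cells, all higher (Rps27l, Rpl27 and Rpl36al), in place of 35 lower, and 19 between neutrophil-like and T-like cells, 10 lower and 9 higher, in place of 81. With no filter on low values, 1 member (Rpl3l) passed between genotypes in place of 0. The minimum of 1000 UMIs, equal weights and the choices of single clusters were alternatives chosen after seeing the data. No paired analysis was possible because each group is 1 library, and no replicate could be left out. Low UMI numbers limit Rpl7l1, Rps19bp1, Rps27l and Rpl3l.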

Other observations

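The genes of the mitochondrial ribosome, whose proteins are made in the cytosol and imported, were counted in the same comparisons. Between effector and naive T-like cells, 63 were tested and 5 were higher and 2 lower, where 17.0% of all genes were higher and 5.66% lower, with a median log2 of 0.17 against 0.23 for all genes. Mrpl51 was higher (log2 0.72 and 0.83, Trem2-/- library first), and Mrpl30 (-1.12 and -0.81) and Mrps28 (-1.13 and -0.72) were lower. Between neutrophil-like and T-like cells, 39 of 46 were lower and 1 was higher, where 48.4% of all genes were lower and 21.3% higher, with a median log2 of -1.96 against -0.69 for all genes. The gene that was higher, Mrpl33, had 517 against 163 CPM in the Trem2-/- library and 554 against 167 CPM in the Trem2+/+ library (log2 1.66 and 1.73). Genes of this list low in both groups were not tested, so the count of lower genes depends on the CPM threshold. In the Trem2-/- library, most of the genes tested in this comparison lay under that threshold in neutrophil-like cells. They passed through their T-like level, so they could be called lower but not higher. Mrps28 (4.12 against 43.0 CPM) and Mrps5 (4.95 against 54.2 CPM) were among them. Others, such as Mrpl52 (71.7 against 296 CPM), were well counted in both.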
